A study of Homo sapiens and Mus musculus with 13 samples.

Results

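The genes described here make cholesterol and fatty acids, or sense and move sterols, in a mouse haematopoietic progenitor line. They were chosen by name: 31 symbols, of which Sc4mol and Msmo1 name the same gene, were looked up in the 37991 gene rows of the mouse files. A row was found for 29 of them, with Msmo1 listed as Sc4mol, and Hmgcs1 was not analysed here. All 29 passed the minimum for testing, a mean normalized read count of at least 10 over the libraries, together with 13132 genes in all. RNA was sequenced from progenitors immortalized by HOXB8 and kept with stem cell factor conditioned medium and beta-estradiol, which both groups share. The knock-in group holds 3 single-cell clones, numbered 12, 18 and 4 in their titles, as here, and 4, 12 and 18, in the same order, in the headers of their files, made with CRISPR/Cas9 and carrying NPM1c fused to GFP, the cytoplasmic mutant of nucleophosmin found in acute myeloid leukaemia. The parental group holds 2 libraries of the wild-type line. The labels call only the knock-in cells single-cell clones, so what the knock-in changed and what cloning selected cannot be told apart. Human leukaemia libraries of the same series carry no gene symbols and were not used here.

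Cells make cholesterol from acetyl-CoA through the mevalonate pathway, which leads to farnesyl diphosphate, and then through squalene and lanosterol in the sterol arm. Acetyl-CoA in the cytosol, supplied from citrate, is also the start of fatty acid synthesis. Both routes are under SREBP transcription factors, which SCAP carries to the Golgi for cleavage when sterols are low, while INSIG proteins hold SCAP back when sterols are plentiful. SREBP2 acts mainly on sterol genes and SREBP1 mainly on fatty acid genes. Dividing blood progenitors use both products for new membrane.

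The libraries held 7358340 to 12235174 reads in the clones, 9728260 in parental replicate 1 and 99557475 in parental replicate 2. Npm1, the targeted gene, was at a normalized read count of 15141, 14144 and 14305 in clones 12, 18 and 4 and at 25695 and 25714 in the parental libraries (log2 fold change -0.82, adjusted p = 0.000533, limma). The progenitor genes Kit, Cd34, Myb, Ptprc, Flt3 and Hoxb8 were read in every library, with a summed value of 60986 to 71244 in the clones and 55849 to 60117 in the parental cells. Of these 6, Myb and Ptprc were higher in the clones (log2 0.34 and 0.57, adjusted p = 0.0412 and 0.0432, limma), Flt3 was lower (log2 -0.53, adjusted p = 0.0117, limma) and 3 did not pass. The calls of Myb, Ptprc and Flt3 were each lost without clone 12 and without parental replicate 2. Those of Myb and Ptprc were also lost without parental replicate 1, and that of Myb without clone 4. Of 5 adipocyte markers, Plin1, Lep and Cidec had no read in any library, and the summed value of the list reached 10.3 in clone 4 and 1.59 elsewhere at most. Of 5 fibroblast markers, Col3a1, Pdgfra and Dcn had no read, and the sum was at most 18.01. In a bulk culture, fewer cells of a type and less RNA per cell cannot be told apart.

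Of the 29 genes, 15 were lower in the knock-in clones (51.7%), 0 were higher and 14 did not pass, by limma on log2(value + 1) with p-values adjusted over all genes. Among all 13132 genes tested, 8.49% were lower and 7.51% were higher. At an unadjusted p under 0.05 (limma) the counts were 19 lower and 0 higher. The share of all genes at that threshold was not computed. On recovered reads edgeR called 17 lower and 0 higher and DESeq2 18 lower and 0 higher. Of all genes, edgeR called 9.35% lower and 8.2% higher, and DESeq2 9.44% lower and 8.89% higher. The median log2 fold change of the 29 genes was -0.49, against 0.011 over all genes tested, and 23 of the 29 values were negative. In 19 of the 29 every clone was below both parental libraries (65.5%, against 25.8% of all genes tested). Of the 15 genes called lower, 8 were called lower under all 14 alternative settings: Acat2, Mvk, Pmvk, Idi1, Lss, Tm7sf2, Sc4mol and Acly. The share of all genes called lower that kept the call under all 14 was not computed, so nothing is read from this count. Without clone 12 the count of lower genes was 9 (4.23% of all genes), and without parental replicate 2 it was 12 (3.05%). Without parental replicate 1 it was 10 (4.38%), and 3 other genes were then called higher (9.36%).

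**Figure D1:**
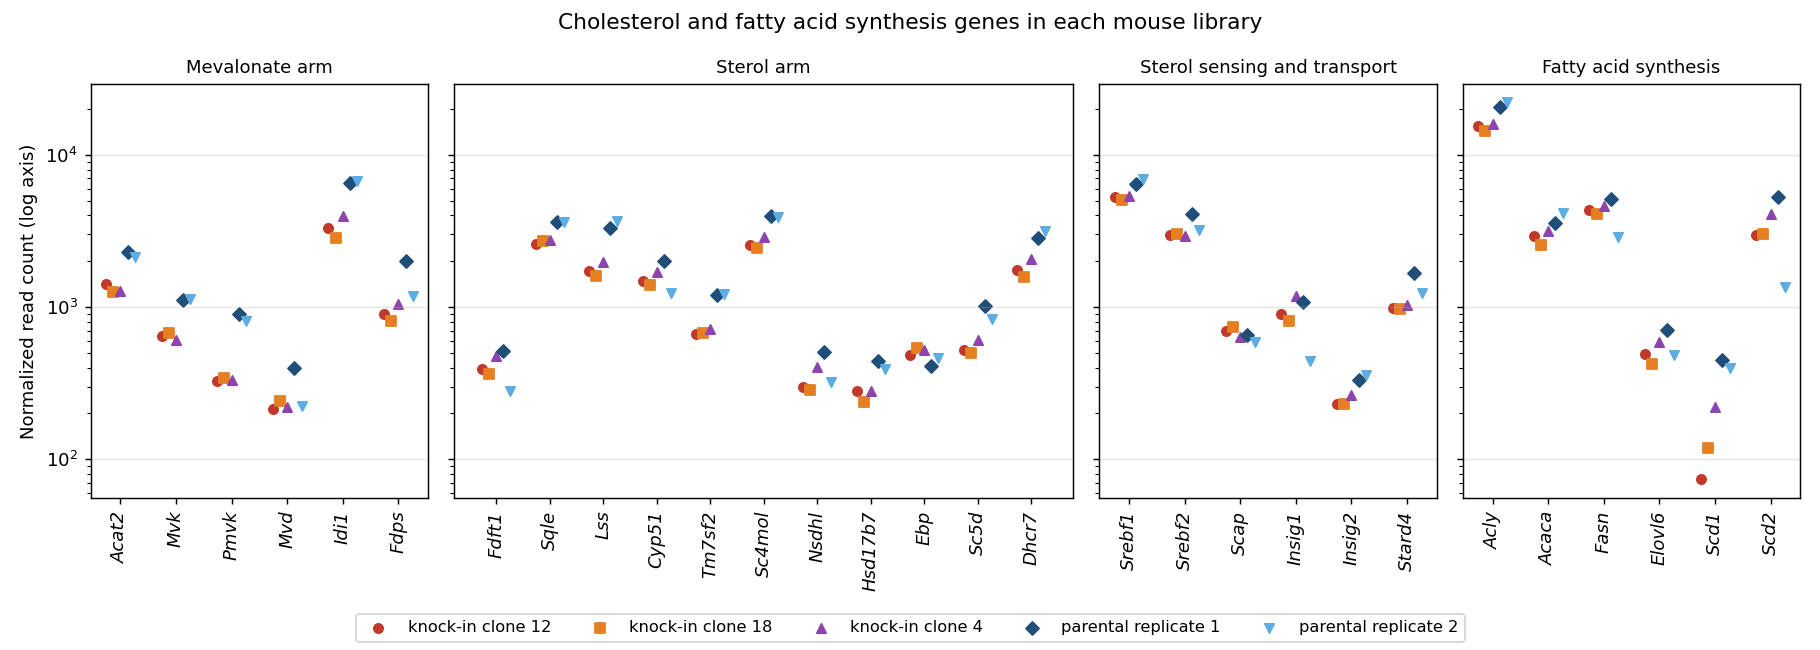
Normalized read count (log axis) of each of the 29 genes in the 3 knock-in clones and the 2 parental libraries, in 4 panels by role. In most columns the clones lie together below the parental pair, while for Scd2, Insig1, Fasn, Fdft1, Cyp51, Nsdhl, Mvd and Fdps the parental libraries stand more than 1.5 times apart.

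In the mevalonate arm 4 of 6 genes were lower in the clones and Mvd and Fdps did not pass, with a median log2 fold change of -0.78. Acat2, the acetyl-CoA acetyltransferase that condenses acetyl-CoA units, was at 1427, 1260.2 and 1269.9 in clones 12, 18 and 4 and at 2287 and 2130.0 in parental replicates 1 and 2. The groups did not overlap, and the gene was 1.68-fold lower (log2 -0.74, SE 0.104, adjusted p = 0.00404, limma). Reads of Acat2 can be shared with its close relative Acat3, which was also lower in the clones (log2 -0.59, adjusted p = 0.00986, limma). Mevalonate kinase, encoded by Mvk, adds the first phosphate to mevalonate. Mvk was at 641, 677 and 605 in the clones against 1108 and 1136, 1.75-fold lower (log2 -0.81, SE 0.115, adjusted p = 0.00439, limma). The next kinase, Pmvk, had the smallest p of the 29 genes. Pmvk was at 326, 342 and 330.3 in the clones against 904 and 816 in the parental libraries, so that the clones lay within 1.05 times of each other and the groups were far apart. It was 2.58-fold lower (log2 -1.36, SE 0.131, adjusted p = 0.000928, limma).

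Idi1, which isomerizes isopentenyl diphosphate, was at 3309, 2858 and 3969.6 in the clones against 6577 and 6716 in the parental libraries. All clones were below both parental values (1.98-fold, log2 -0.99, SE 0.135, adjusted p = 0.00389, limma). The related Idi2 had no read in any library. Mvd, the decarboxylase between these steps, was at 215, 241 and 219.5 in the clones but at 398 and 223 in parental replicates 1 and 2. Its clones were all below parental replicate 1 and lay on both sides of replicate 2 (log2 -0.40, SE 0.245, adjusted p = 0.303, limma). Fdps makes farnesyl diphosphate, the last product before the sterol arm. Fdps was at 895, 807 and 1040.1 in the clones against 2007 and 1178 in the parental libraries. Its clones were below both parental libraries, yet the gene did not pass (log2 -0.76, SE 0.232, adjusted p = 0.0730, limma). Without parental replicate 2, Mvd and Fdps were called lower (adjusted p = 0.0441 and 0.0117, limma), where all 14 alternatives gave 0.0441 to 0.980 for Mvd and 0.00875 to 0.216 for Fdps, the lowest value of Fdps from DESeq2. The Fdps log2 fold change was then -1.14, and -0.37 without parental replicate 1, and that of Mvd was -0.82 and 0.012.

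In the sterol arm 7 of 11 genes were lower in the clones and Fdft1, Cyp51, Nsdhl and Ebp did not pass, with a median log2 fold change of -0.58. Lss, the cyclase that forms lanosterol, was at 1717, 1607 and 1976 in the clones against 3326 and 3662 in the parental libraries. The groups were separated by more than the spread within either (1.98-fold lower, log2 -0.99, SE 0.115, adjusted p = 0.00186, limma). Tm7sf2, a sterol C14 reductase, was at 662, 674 and 714 against 1196 and 1226 (log2 -0.83, SE 0.110, adjusted p = 0.00319, limma). Sc4mol, the C4 methyl sterol oxidase, was at 2562, 2425 and 2907 against 3953 and 3885. Its clones were again below both parental libraries (log2 -0.58, SE 0.102, adjusted p = 0.0101, limma, and at most 0.0495 over the alternatives).

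Dhcr7, which makes cholesterol from 7-dehydrocholesterol, was at 1748, 1574 and 2058 in the clones against 2853 and 3153 in the parental libraries (log2 -0.75, SE 0.129, adjusted p = 0.00926, limma). The groups did not overlap, but the call was lost without parental replicate 2 (adjusted p = 0.0568, the highest of its 14 alternatives, which began at 1.43e-05). Sc5d, the desaturase that acts just before Dhcr7, was at 526, 498 and 607 against 1016 and 834 (log2 -0.76, SE 0.149, adjusted p = 0.0141, limma). Its call was lost without clone 12 or without parental replicate 1 (adjusted p = 0.0598 and 0.0565, limma, range 0.000125 to 0.0598).

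Sqle, the squalene epoxidase of the sterol arm, was at 2596, 2706 and 2767 in the clones. The parental values were 3603 and 3610.2, which agree closely, and all clones were below them (1.34-fold, log2 -0.42, SE 0.0838, adjusted p = 0.0146, limma). The Sqle call was lost without clone 12, parental replicate 1 or parental replicate 2 (adjusted p = 0.0701, 0.0527 and 0.0737, limma, range 8.72e-05 to 0.0737). Hsd17b7, a 3-keto sterol reductase, was at 282, 239 and 281 against 443 and 389.6 (log2 -0.64, SE 0.157, adjusted p = 0.0321, limma). It passed without clone 4 but not without any other library (0.0866 without clone 12, 0.0819 without clone 18, 0.110 and 0.0649 without parental replicates 1 and 2, limma, range 0.00646 to 0.110).

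The other 4 sterol genes did not pass, and the parental libraries differed for 3 of them. Fdft1, the squalene synthase, was at 393, 363 and 476 in the clones, between 514 in parental replicate 1 and 282 in replicate 2. Cyp51, the lanosterol demethylase, was likewise at 1472, 1385 and 1703 in the clones, between 1995 and 1239. Nsdhl, a C4 sterol dehydrogenase, was at 299, 287 and 406 in the clones against 507 and 321, so that replicate 2 fell among the clones. Their log2 fold changes were 0.10, -0.05 and -0.30 (adjusted p = 0.828, 0.884 and 0.430, limma). Ebp, the sterol isomerase, was the 1 gene of the 29 with every clone above both parental libraries. Ebp was at 483, 542 and 519 in the clones against 412 and 461 in the parental libraries (log2 0.24, SE 0.137, adjusted p = 0.276, limma), a pattern shown by 24.5% of all genes tested.

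**Figure D2:**
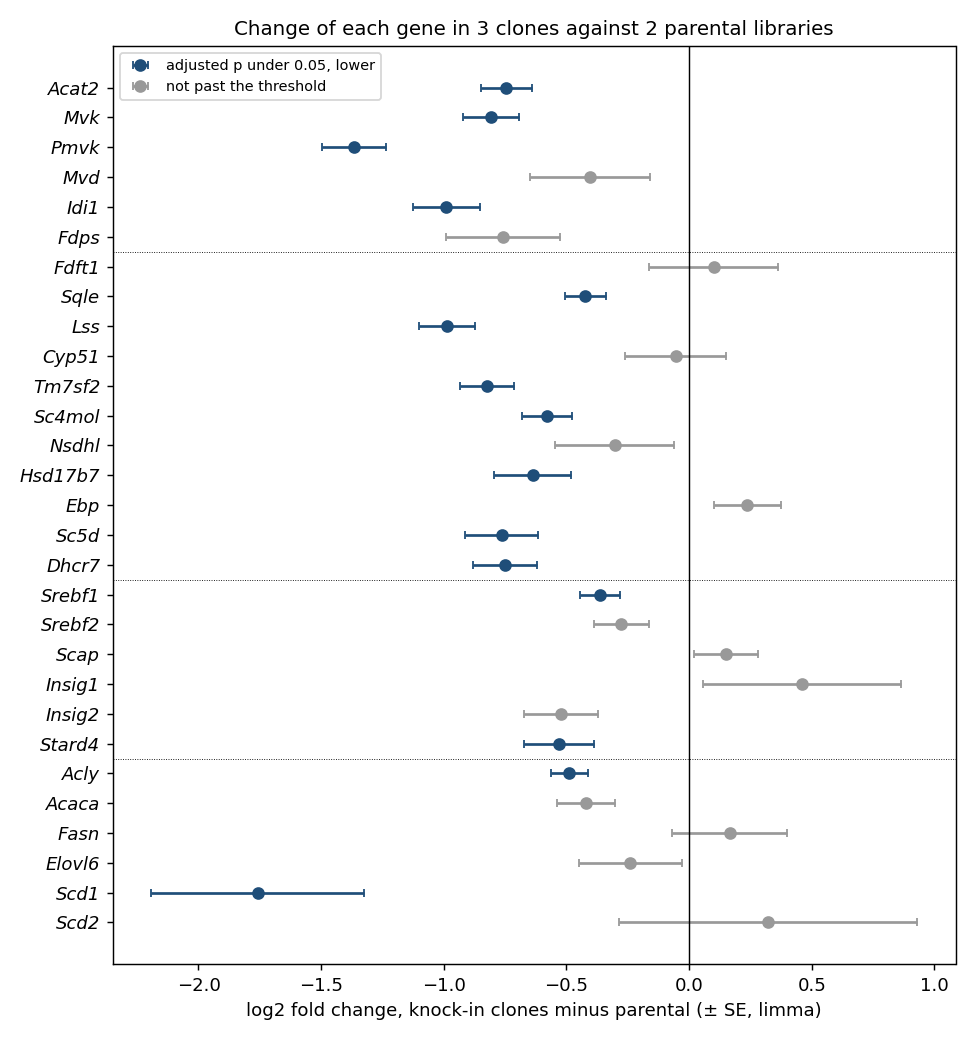
Log2 fold change of each gene in the 3 clones against the 2 parental libraries with its standard error (limma), ordered by role, with dotted lines between the 4 groups of genes. The 15 genes past an adjusted p of 0.05 are all on the lower side, and the widest errors belong to Scd2, Scd1 and Insig1.

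Among the 6 genes of sterol sensing and transport, Srebf1 and Stard4 were lower and 4 did not pass. Srebf1, which encodes SREBP1, was at 5285, 5034 and 5393 in the clones against 6479 and 6989 in the parental libraries. The groups did not overlap and the difference was small (1.29-fold, log2 -0.36, SE 0.0810, adjusted p = 0.0224, limma). This call was lost without clone 12, clone 18 or parental replicate 2 (0.0831, 0.0606 and 0.137, limma, range 0.00154 to 0.137). Stard4, a cytosolic sterol carrier, was at 979, 976 and 1034 in the clones against 1670.2 and 1237 in the parental libraries (log2 -0.53, SE 0.142, adjusted p = 0.0435, limma). All Stard4 clones were below both parental libraries, and the clones lay within 1.06 times of each other. It passed without parental replicate 2 (0.0213) and lost the call without any other library. The adjusted p was then 0.132, 0.103 and 0.0501 without clones 12, 18 and 4 and 0.181 without parental replicate 1 (limma, range 0.0106 to 0.181).

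Srebf2, which encodes SREBP2, was at 2978, 3007 and 2950.0 in the clones against 4057 and 3209 in the parental libraries. The clones were below both, but the gene did not pass (log2 -0.28, SE 0.113, adjusted p = 0.141, limma). Scap, the SREBP escort, was at 640.1 to 734 in the clones against 657 and 587 in the parental libraries, which overlap (log2 0.15, adjusted p = 0.460, limma). Insig2 was at 230.2, 231 and 263 in the clones against 334 and 359.5. No clone reached the parental values, and the adjusted p was 0.0551 by limma, 0.0489 by edgeR and 0.0252 by DESeq2, over a range of 0.0252 to 0.188. Insig1, itself a classical SREBP target, was at 905, 805 and 1189.9 in the clones, at 1086 in parental replicate 1 and at 441 in replicate 2. The clones were thus near replicate 1 and above replicate 2 (log2 0.46, SE 0.404, adjusted p = 0.484, limma).

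In fatty acid synthesis 2 of 6 genes were lower, Acly and Scd1, and 4 did not pass. Acly, which makes cytosolic acetyl-CoA from citrate, was at 15365, 14433 and 15872 in the clones against 20613 and 22089 in the parental libraries. The groups did not overlap (1.40-fold lower, log2 -0.49, SE 0.0747, adjusted p = 0.00577, limma). Scd1, a stearoyl-CoA desaturase, had the largest fold change and the widest clone spread of the 29 genes. It was at 73.9, 119 and 219.5 in clones 12, 18 and 4, from 60, 75 and 107 reads, and at 449 and 399.8 in the parental libraries. Clone 4 was thus 2.97 times as high as clone 12, where the clones of each of the other 28 genes lay within 1.48 times of each other. Scd1 was 3.38-fold lower in the clones (log2 -1.76, SE 0.435, adjusted p = 0.0447, limma). Its call was lost without clone 12, clone 18, parental replicate 1 or parental replicate 2 (0.0521, 0.129, 0.127 and 0.128, limma) and was stronger without clone 4 (0.00163), over a range of 0.000679 to 0.129.

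Acaca, the acetyl-CoA carboxylase, was at 2948, 2554 and 3149 in the clones against 3570.4 and 4136, without overlap (log2 -0.42, SE 0.119, adjusted p = 0.0508, limma). It passed without clone 4 (0.0275, limma) and with edgeR and DESeq2 (0.0433 and 0.0189), over a range of 0.0189 to 0.246. Elovl6, a fatty acid elongase, was at 494, 423 and 593 in the clones against 712 and 487 in the parental libraries, which lay 1.46 times apart (log2 -0.24, adjusted p = 0.472, limma). Fasn, the fatty acid synthase, was at 4332, 4085 and 4609.7 in the clones, below 5146 in parental replicate 1 and above 2906 in replicate 2. Scd2, the desaturase relative of Scd1, was at 2979, 3021 and 4115 in the clones, below 5251 and above 1353. This was the widest parental difference of the 29 genes, 3.88 times. Neither Fasn nor Scd2 passed (log2 0.17 and 0.32, adjusted p = 0.669 and 0.759, limma). Reads can be shared within the Scd family, of which Scd3 was at 57.9, 91.9 and 69.8 in the clones against 162 and 158 in the parental libraries (log2 -1.14, adjusted p = 0.0167, limma). The Scd3 call was lost without clone 12 or either parental library (0.0554, 0.0684 and 0.0832, limma).

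The parental libraries disagreed on a subset of the synthesis genes. In 8 of the 29 (27.6%), replicate 2 lay below replicate 1 by more than 1.5 times, and in 0 it lay above by as much. Over all genes tested these shares were 7.61% and 4.71%. The 8 genes were Scd2 (3.88 times), Insig1 (2.46), Fdft1 (1.82), Mvd (1.78), Fasn (1.77), Fdps (1.70), Cyp51 (1.61) and Nsdhl (1.58), and Elovl6 (1.46) lay just inside the limit. They come from all 4 groups of genes. The fewest reads behind these values were 256 for Mvd in parental replicate 1 and 1462 for Mvd in replicate 2, and the depth of the parental libraries differed as given above. Its part in the disagreement was not tested, and a difference between single libraries has no replicate check.

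Of these 8 genes 0 were called. The gap between the only 2 parental libraries also enters the spread used by the test, and 5.7% of the 1000 tested genes with the same parental difference were called, against 16.8% of the rest, so nothing is read from that count. Compared with parental replicate 1 alone, every clone was lower in 7 of the 8, Insig1 in clone 4 being the exception. The choice of these 8 genes favours a high replicate 1. The share among the 1000 genes was not computed, so nothing is read from this count. Compared with parental replicate 2 alone, every clone was higher in 5 of the 8: Scd2, Insig1, Fdft1, Fasn and Cyp51. Among those 1000 genes, every clone was above replicate 2 in 83.5%, and every clone lay between the parental libraries in 29%, which held for 4 of the 8 genes here. Over all 29 genes every clone was below parental replicate 1 in 26 and below replicate 2 in 19, against 34.9% and 34.6% of all genes tested.

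The direction of 7 of these 8 genes, all but Fdps, differed between the fits that kept a single parental library. These genes were chosen by the parental ratio, which by itself sets the shift in log2 fold change between those fits. The share of genes with the same parental difference that turned was not computed. Nothing is therefore read from this count or from the calls that follow. Without parental replicate 1, Insig1, Fasn and Scd2 were called higher in the clones, with log2 fold changes of 1.11, 0.58 and 1.30 (adjusted p = 0.0225, 0.0230 and 0.00856, limma). Without parental replicate 2, the same genes had log2 fold changes of -0.19, -0.25 and -0.66 and did not pass (adjusted p = 0.665, 0.260 and 0.0990, limma). Over the 14 alternatives the adjusted p ran from 0.0225 to 0.749 for Insig1, 0.0230 to 0.838 for Fasn and 0.00856 to 0.987 for Scd2. With a single parental library left, that library is assumed to vary as the clones do. The median log2 fold change of the 29 genes was -0.63 without parental replicate 2 and -0.42 without parental replicate 1.

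**Figure D3:**
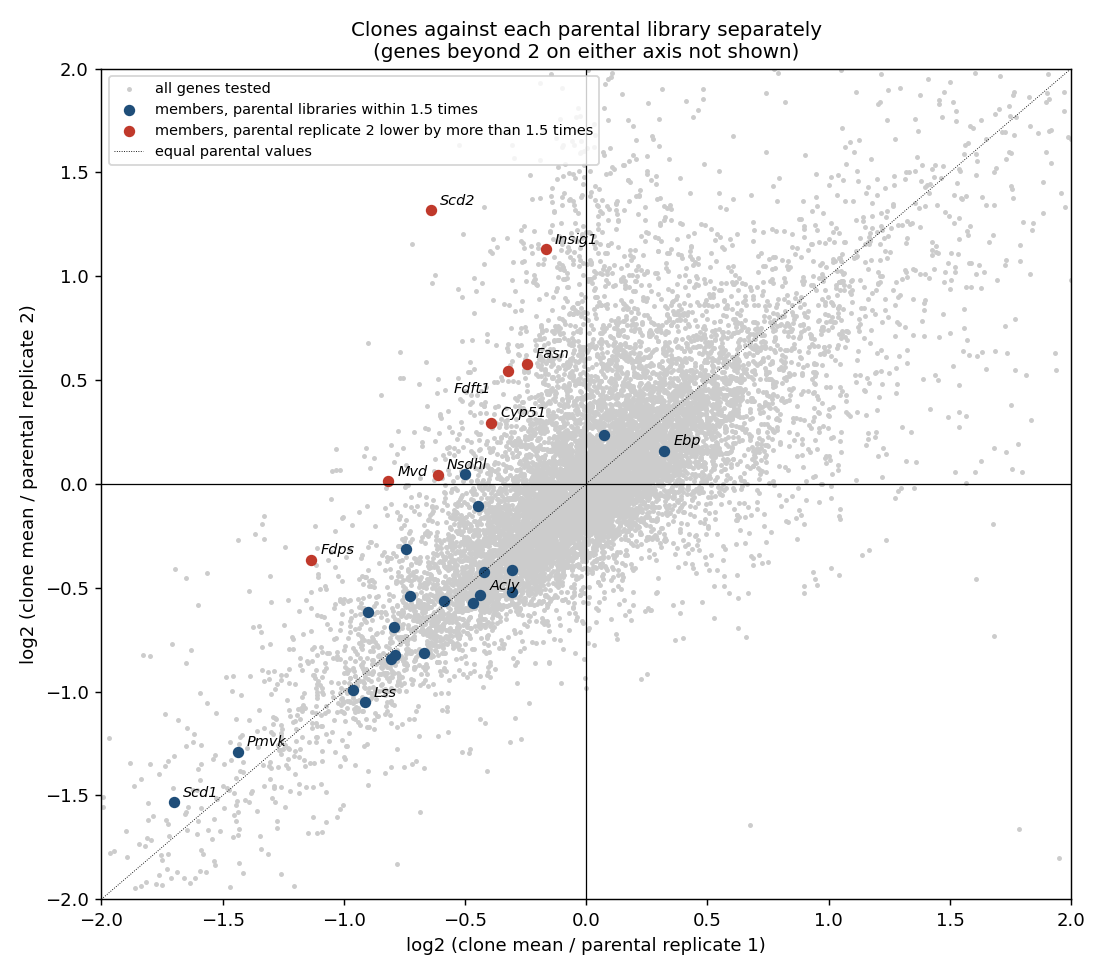
Log2 ratio of the clone mean to parental replicate 1 (horizontal) and to parental replicate 2 (vertical) for the 29 genes (large points) and all genes tested (grey), with a dotted line where the parental values are equal. The 8 genes with parental replicate 2 more than 1.5 times lower (red) lie above the line, with Scd2 and Insig1 farthest up, while most of the other 21 (blue) lie near the line in the lower left.

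The clones also differed among themselves in order. Clone 4 was the highest clone in 21 of the 29 genes, where it was the highest in 38.2% of all genes tested, and clone 18 was the lowest in 18 of the 29, against 33.7%. Clone 4 was the highest in 21 genes also after TMM or library total scaling, while clone 18 was the lowest in 18 and 16. The widest clone ranges after Scd1 were in Insig1 (1.48 times) and Nsdhl (1.42 times), and the narrowest was in Srebf2 (1.02 times). These are single libraries per clone, so no test of a difference between clones was made.

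Other lipid genes were counted from lists that hold none of the 29. Beside these counts, 8.49% of all genes tested were lower in the clones and 7.51% were higher. Of 25 tested genes of sterol and lipid synthesis outside the 29, 4 were lower, 1 was higher and 20 did not pass, with a median log2 fold change of 0.11 (-0.21 without parental replicate 2). Acss2, which makes acetyl-CoA from acetate, was higher in the clones, at 2153, 1905 and 2088 against 522 and 589 (3.68-fold, log2 1.88, SE 0.113, adjusted p = 0.000159, limma). Acly, the citrate route to the same product, was lower as given above. Lpin1, a phosphatidate phosphatase, was at 18.5, 19.0 and 24.6 in the clones against 158 and 160.5 in the parental libraries (7.45-fold lower, log2 -2.90, SE 0.251, adjusted p = 0.000684, limma). A single read is worth 1.23, 1.59 and 2.05 in clones 12, 18 and 4, so these clone values rest on few reads. Acss2 and Lpin1 passed without each library in turn.

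The same parental difference, with replicate 2 lower by more than 1.5 times, was present in 7 of the 25 tested genes of this list, and the opposite in 0. Over all genes tested these shares were 7.61% and 4.71%. Among them Fads2, a fatty acid desaturase named after its values were seen, was at 799 and 295 in the parental libraries and at 644, 626 and 794 in the clones.

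Of 16 tested genes of sterol efflux, storage and turnover, 3 were higher, 2 were lower and 11 did not pass, with a median log2 fold change of 0.41 (0.06 without parental replicate 2). Scarb1, a lipoprotein receptor, was at 2195, 2333 and 2031 in the clones against 3225 and 3534 in the parental libraries (log2 -0.63, adjusted p = 0.00673, limma). Nceh1, a cholesteryl ester hydrolase, was at 516, 514 and 739 in the clones against 263 and 262 in the parental libraries (log2 1.14, SE 0.191, adjusted p = 0.00813, limma). Both passed without each library in turn. Neither gene's groups overlapped, and they moved in opposite directions. Of 16 tested fatty acid oxidation genes, 3 were higher, 2 lower and 11 did not pass, with a median of 0.06 (-0.05 without parental replicate 2). The 3 higher genes were Cpt1a, Slc25a20 and Acadvl (log2 0.94, 0.77 and 0.52, adjusted p = 0.0307, 0.0484 and 0.0272, limma). All 3 lost the call without clone 12 or without clone 18, and Cpt1a also without clone 4. Leaving out a parental library lost further calls: Cpt1a without replicate 2, Acadvl without replicate 1 and Slc25a20 without either. The 2 lower genes had smaller p. Etfdh, which passes electrons from acyl-CoA dehydrogenases to ubiquinone, was 1.55-fold lower (log2 -0.63, adjusted p = 0.0102, limma). Ppard, a nuclear receptor for fatty acids, was 2.30-fold lower (log2 -1.20, adjusted p = 0.0138, limma, and 0.0696 without parental replicate 2).

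**Figure D4:**
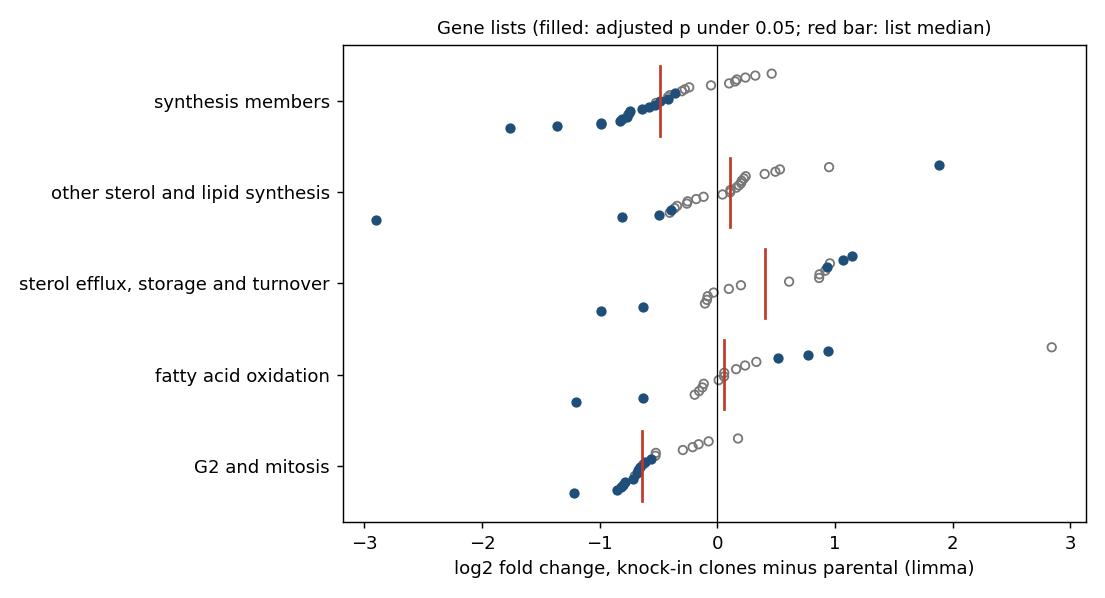
Log2 fold change of each tested gene in 5 lists (horizontal; within a list the genes are spread vertically in order of value), with filled points past an adjusted p of 0.05 and a red bar at the list median. The medians of the 29 synthesis genes and of the G2 and mitosis list lie at -0.49 and -0.64, those of the other 3 lists at 0.06 to 0.41.

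Some markers of growth and of cell identity also differed between the clones and the parental libraries. In the G2 and mitosis list 11 of 20 genes were lower, 0 were higher and 9 did not pass. The median log2 fold change of the 20 was -0.64 (-0.69 without parental replicate 2). Over all genes tested 8.49% were lower and 7.51% higher, shares that also stand beside the marker counts below. In 4 of the 20 mitosis genes parental replicate 2 was lower by more than 1.5 times, against 7.61% of all genes tested. Of 8 mast cell and basophil markers 7 were tested and 5 were higher, and their summed value was 10007 to 12604 in the clones and 2933 to 5357 in the parental libraries. Fcer1a, a defining marker of these cells, was at most 11.1 in a clone and had no parental read. The largest clone values in that list were those of Gata2 (4058 to 5293) and Cpa3 (2748 to 4388). Cpa3 was at 2450 and 386 in parental replicates 1 and 2. Cpa3 and Hdc did not pass (adjusted p = 0.225 and 0.139, limma). Of 8 granulocyte markers 4 were tested and 3 were lower, with a summed value of 11400.1 to 25724 in the clones and 46723 to 51738 in the parental libraries, and Camp had no read in any library. Mpo, which makes up most of that sum, did not pass (log2 -1.65, adjusted p = 0.0629, limma). Of 7 monocyte and macrophage markers 4 were tested. Emr1 was higher, at 532, 659 and 938 in the clones against 154 and 191 (log2 2.01, adjusted p = 0.00269, limma), and it carries the sum of the list, 666 to 1083 in the clones and 376 to 399 in the parental libraries. The other 3 tested, Csf1r, Cd14 and Ly86, did not pass, with log2 fold changes of -0.023, -0.64 and -2.40, the median of the 4 was -0.33, and Lyz2 was at 0 throughout. The sum of 5 erythroid markers, of which 1 was tested, was 39.6 to 68.9 in the clones and 3.11 to 4.43 in the parental libraries, with Hba-a1 at 0. In the clones it rests mostly on Hbb-b1, a beta globin, at 61.6, 25.4 and 51.3 against 0 and 0.763. The part of these markers in the change of the synthesis genes was not tested.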

How the data were processed

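Mouse libraries were made with the NEBNext Ultra II kit from total RNA, per the labels' protocols. STAR 2.6.1, RSEM, DESeq2 and the builds mm9 and hg19 are listed in the submitters' processing notes with no role or order. Annotation release and strand use are not given in those sources. The authors deposited for each mouse library a signal value per Ensembl gene, and these values are read counts divided by a size factor per library: 100% of values above 0 were whole multiples of the library's smallest value (tolerance 0.01). The clones titled 12, 18 and 4 are headed 4, 12 and 18 in their files, and clones are named by title; which numbering is right is not settled here, and it does not touch the groups. Whether the parental libraries are separate cultures is not labelled, so p-values may measure technical spread.

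limma 3.58.1 (R 4.3.3, trend, robust moderation) was fitted on log2(value + 1) for genes with a mean of at least 10, with Benjamini-Hochberg adjustment over 13132 genes; called means an adjusted p under 0.05. Low genes change by more than this scale shows. Alternatives included edgeR 4.0.16 and DESeq2 1.42.0 on recovered reads. Parental libraries were compared by the ratio of value + 1. Members, lists and tests were chosen with earlier results of these data known. All 29 members were named; of the other lipid lists, the 2 called genes with the smallest p, and further names as stated. Some genes of these lists are counted but not reported here by name. Levels are not per length, so they are not compared between genes. Sequences and positions of the members are not given, since the reference used here is human.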

Additional observations from a re-analysis of the deposited data

How the results depend on the processing

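The count of genes called lower was 9 to 15 when each library was left out in turn, that called higher 0 to 3, and that of all genes called 990 to 2115 (2101 with all libraries; edgeR called 2265 and DESeq2 2681). The median log2 fold change of the 29 genes was -0.63 to -0.42 over the same fits. Under the other 9 alternatives (pseudocounts of 0.5 and 5, a minimum mean of 50 or none, TMM and library total scaling, no robust moderation, edgeR, DESeq2) the count of lower genes was 12 to 18, and 0 were higher. Of all genes tested, these settings called from 3.73% (no minimum mean) to 9.44% (DESeq2) lower. With no minimum mean, Hsd17b7, Stard4 and Scd1 were not called. With a ratio of 2 in place of 1.5, 2 genes, Scd2 and Insig1, had parental libraries that far apart. Directions turned only for genes that were not called with all libraries. Leaving out each library in turn, the log2 fold change ran from -0.82 to 0.012 for Mvd, -0.63 to 0.026 for Nsdhl, -0.51 to 0.034 for Elovl6, -0.40 to 0.29 for Cyp51, -0.33 to 0.53 for Fdft1, -0.19 to 1.11 for Insig1, -0.25 to 0.58 for Fasn and -0.66 to 1.30 for Scd2. The lowest value came without parental replicate 2 and the highest without parental replicate 1 in each of these 8 genes. Parental replicate 2 was the lower parental library in all of them. The cause of these changes was not tested, beyond the parental values given in the report. No paired analysis was possible because the clones and the parental libraries share no replicate number. Among the 29 genes, the fewest reads behind a value were 60, for Scd1 in clone 12.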
